A study of Rattus norvegicus with 8 samples.

Results

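Collagen chain genes were examined in rat lung (Rattus norvegicus) by RNA sequencing of poly(A)-selected RNA. Members were all rows of the deposited gene table whose symbol has the form Col, a number, a, a number, which gave 42 genes among 32623, with 1 row for each symbol. The MCT group has 4 lung libraries from rats treated with monocrotaline, a plant alkaloid that damages the lung vessels and is used to model pulmonary hypertension. The control group has 4 lung libraries, and the labels do not say what its rats received. Strain, sex, age, monocrotaline dose and time of sampling are likewise unstated. No label says whether each library is a separate animal, so the error behind each p-value is that between libraries and may be partly technical. Col1a2, Col6a3 and Col21a1 were not analysed here.

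Collagens are secreted proteins built of 3 chains wound into a triple helix, and most chains work only with set partners. Fibrillar collagens (types I, III and V in lung) make the load-bearing fibrils of vessel adventitia, airways and septa. Type IV collagens form the sheets of basement membranes under epithelium and endothelium, FACIT collagens sit on the surface of fibrils, and types VIII and X form hexagonal networks. The remaining chains include the beaded filaments of type VI, transmembrane collagens, and the multiplexins of types XV and XVIII at the edge of basement membranes. In the lung, fibroblasts and smooth muscle cells make most fibrillar collagen, and a meshwork of Col4a3, Col4a4 and Col4a5 chains is a feature of the alveolar wall and the kidney glomerulus.

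The libraries held about 10.8 to 14.7 M read pairs in control and 11.3 to 18.1 M in MCT. Levels are given as FPKM, read pairs scaled to transcript length and library depth, so levels of different chains can be set side by side. Differences are log2 fold changes of MCT minus control from edgeR's quasi-likelihood test, with p adjusted by Benjamini-Hochberg over all 16715 genes tested and a threshold of 0.05 for a call. A filter on low counts passed 35 of the 42 chains, and 7 were too low to test. The library MCT 1 had the lowest value of the MCT group for 7 of the 9 chains called higher and for 13 of the 24 chains not called. It also had the highest summed level of 8 cardiac myocyte markers (165 FPKM, where MCT 2 to 4 had 27.4 to 54.5 and control had 29.6 to 69.9). The part of this library in each result is given below by leaving it out.

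Transcripts of 9 collagen chains rose in MCT lung: Col1a1, Col3a1, Col5a3, Col4a1, Col4a2, Col8a1, Col6a6, Col15a1 and Col18a1. Those of 2 chains fell, Col4a3 and Col6a4. In all, 11 of 35 tested chains were called in either direction, where 20.5% of all genes tested were. Of the tested chains 25.7% were higher, where 11.0% of all genes tested were, and 5.71% were lower, where 9.45% of all genes were. The median log2 fold change was 0.32 over the 35 chains and 0.03 over all genes tested, and 60.0% of the chains had a value above 0 against 52.4% of all genes. Groups did not overlap in FPKM for 9 tested chains (25.7%), which is near the 25.0% found over all genes. Without MCT 1 the counts were 16 higher and 3 lower of 36 chains tested. Over all 16947 genes tested without it, 1946 were higher and 1730 lower. MCT 1 was often the lowest MCT library for these chains, so more calls higher without it were partly built in. The added chains were Col5a1, Col5a2, Col11a1, Col4a5, Col4a6, Col6a1, Col6a2 and Col6a5 among those higher and Col11a2 and Col27a1 among those lower, while Col8a1 and Col6a4 were no longer called.

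**Figure D1:**
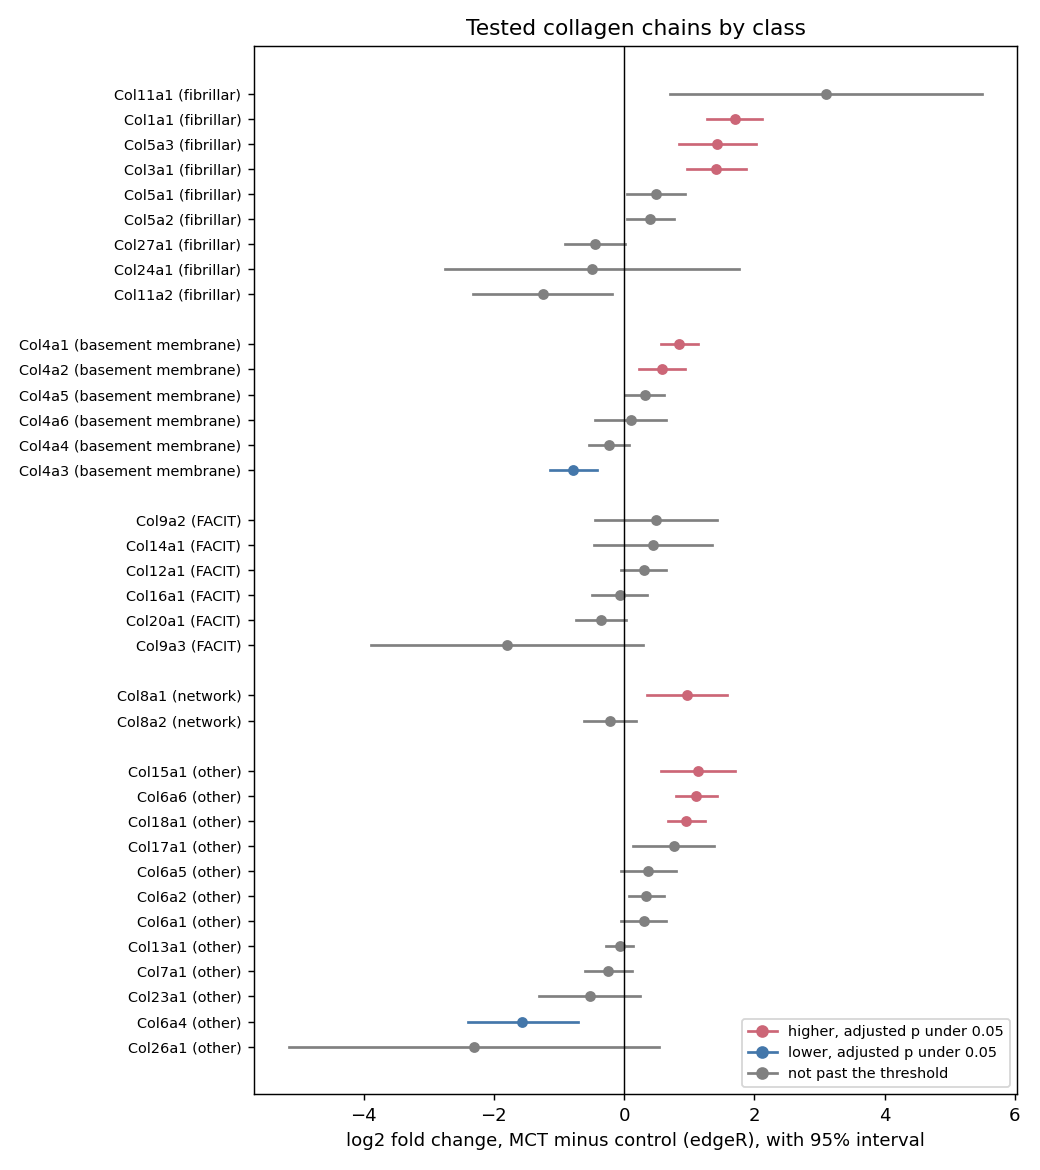
Log2 fold change (MCT minus control, edgeR, x axis) of the 35 tested chains grouped by class, with its 95% interval as a bar. Red chains were higher (9), blue chains lower (2) and grey chains not past the threshold (24). Col11a1, Col24a1, Col9a3 and Col26a1, with few read pairs, have the widest intervals.

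Of the 10 fibrillar chains 9 were tested, and edgeR called 3 higher and none lower, where DESeq2 called 4 higher and 1 lower (Col11a2, -1.27, adjusted p 0.0141). Over all 16715 genes DESeq2 called 2266 higher and 2181 lower. The median log2 fold change of the fibrillar chains, 0.49 by edgeR, was the highest of the 5 classes. Col3a1, the only chain of type III collagen and the most abundant of the 42 chains in every library, was at 355, 331, 293 and 230.1 FPKM in control 1 to 4. In MCT 1 to 4 it was at 573, 838, 763 and 1064 FPKM. Every MCT library lay above every control library, and the log2 fold change was 1.41 (SE 0.20, adjusted p 0.00197). Col3a1 (ENSRNOG00000003357) lies on chromosome 9 from 52023295 to 52059217 on the plus strand of Rnor_6.0. A gene annotated as a miRNA, AABR07067556, lies inside it on the same strand and held 10140 read pairs over the 8 libraries against 303696 for Col3a1, so a small part of the reads could have been assigned to either.

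Col1a1 encodes the chain present in 2 copies in the type I trimer, the main fibril of scar tissue. Its FPKM was 61.2, 60.5, 54.5 and 35.8 in control 1 to 4, and 149, 192, 154 and 197 in MCT 1 to 4. The groups did not overlap, and control 4 was the lowest control library, as it was for Col3a1. The log2 fold change of 1.70 (SE 0.19, adjusted p 0.000655) was the largest of the called chains. It lies on chromosome 10 from 82745801 to 82762789 (plus strand, Rnor_6.0).

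Of the 3 type V chains, which seed fibrils and limit their width, 1 was called. Col5a3, the least abundant of them, was at 0.61, 0.58, 1.13 and 1.09 FPKM in control and 1.83, 2.88, 2.09 and 2.41 in MCT, with no overlap and a log2 fold change of 1.43 (SE 0.26, adjusted p 0.00533). Col5a1 was at 12.8, 16.0, 15.4 and 11.7 FPKM in control and 12.9, 22.8, 18.5 and 24.5 in MCT. Here MCT 1 lay within the control range and the other MCT libraries above it, and Col5a1 was not called (0.49, SE 0.20, adjusted p 0.115). Col5a2, the usual partner of Col5a1, was at 54.2, 58.1, 51.7 and 50.8 FPKM in control and 46.8, 77.2, 75.7 and 84.2 in MCT. Its MCT 1 value was below every control value, and it was not called either (0.40, SE 0.16, adjusted p 0.114). Without MCT 1, Col5a1 (0.64, adjusted p 0.0178) and Col5a2 (0.55, adjusted p 0.00416) were both called.

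The other fibrillar chains were at low levels. Col11a1, a chain of cartilage fibrils also seen in activated fibroblasts, was at 0.13 FPKM or less in control and 0.06, 0.62, 0.50 and 0.39 in MCT 1 to 4. These values rest on about 20 control and 175 MCT read pairs, and the log2 fold change of 3.10 (SE 1.06) was not called (adjusted p 0.0708). It was called without MCT 1 (3.45, adjusted p 0.0413), without control 1, with DESeq2 and with counts divided to read pairs. Col11a2, its cartilage partner, had the opposite sign, at 1.97 to 4.14 FPKM in control and 0.70 to 3.07 in MCT (-1.25, SE 0.47, adjusted p 0.0967), and was called lower without MCT 1 (-1.92, adjusted p 0.003). Col27a1 was at 2.42 to 3.0 FPKM in control and 1.64 to 2.91 in MCT (-0.44, adjusted p 0.166), and Col24a1 stayed at or under 0.24 FPKM in all 8 libraries. Col2a1, the cartilage fibril chain, was listed at 0 in 7 libraries and at 0.04 FPKM in control 1. Of 8 cartilage cell markers only 2 passed the filter and Cnmd was at 0 throughout, with summed levels of 0.58 to 1.76 FPKM in control and 0.75 to 1.99 in MCT.

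**Figure D2:**
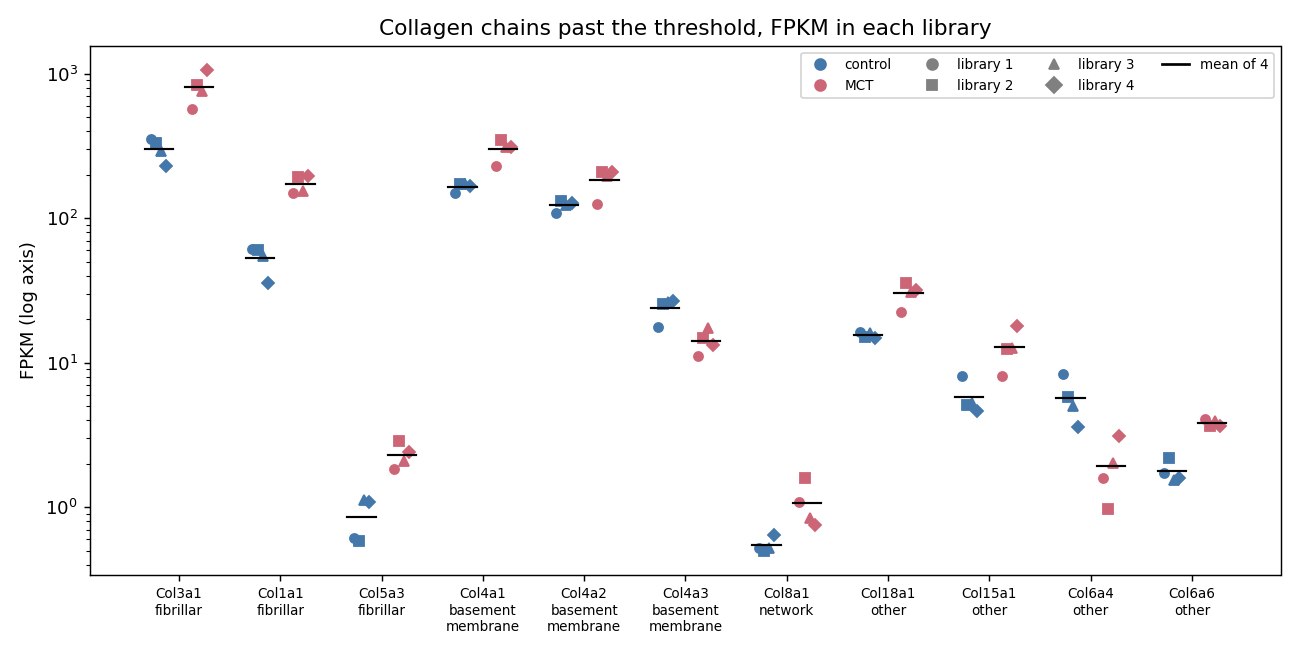
FPKM (log y axis) of the 11 called chains in each of the 8 libraries, control in blue and MCT in red, with the library number as the marker shape and the mean of 4 as a black line. The groups are separate for 9 chains; for Col4a2 and Col15a1 the MCT 1 value (125 and 8.04 FPKM) lies within the control range.

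Basement membrane chains were called in both directions. Type IV collagen is assembled from 6 chains that form 3 kinds of trimer, of which the Col4a1 and Col4a2 trimer is found in nearly all basement membranes. All 6 chains were tested, 2 were higher and 1 was lower. The genes lie in 3 head-to-head pairs, each pair read outward from a common start region. In the RefSeq annotation of GRCr8 the starts of Col4a1 and Col4a2 are 77 bases apart, those of Col4a3 and Col4a4 413 bases apart and those of Col4a5 and Col4a6 1415 bases apart. The gene models of the deposited table, on Rnor_6.0, leave wider gaps of 83.6, 13.9 and 295.8 kb. The sequences between the starts are shown for the pairs that held the called chains, 5′ to 3′, with matches to the GC box (GGGCGG, searched on both strands) in capitals. The first is all of the sequence between both starts, on the strand of Col4a1 (chr16:84885521-84885596, GRCr8, plus strand), and the others are the 250 bases before the Col4a3 start (chr9:91323740-91323989, plus strand) and before the Col4a4 start (chr9:91323578-91323827, minus strand), which overlap in part.
Col4a1-Col4a2: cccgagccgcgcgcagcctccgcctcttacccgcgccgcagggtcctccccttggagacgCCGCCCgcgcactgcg
Col4a3: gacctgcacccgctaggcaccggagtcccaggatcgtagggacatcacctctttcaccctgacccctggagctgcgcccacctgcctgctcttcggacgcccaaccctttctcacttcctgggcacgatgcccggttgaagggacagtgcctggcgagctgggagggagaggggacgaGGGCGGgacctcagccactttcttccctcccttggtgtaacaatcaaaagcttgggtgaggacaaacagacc
Col4a4: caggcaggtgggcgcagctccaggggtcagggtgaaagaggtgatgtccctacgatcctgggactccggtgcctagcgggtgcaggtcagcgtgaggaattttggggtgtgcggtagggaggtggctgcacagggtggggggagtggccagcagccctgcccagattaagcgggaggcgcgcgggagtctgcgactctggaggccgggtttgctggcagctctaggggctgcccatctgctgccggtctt
The short Col4a1-Col4a2 segment holds 1 GC box, which 18.1% of all promoter windows of 76 bases hold, and the Col4a3 window holds 1, which 30.5% of windows of 250 bases hold. The Col4a4 window holds none. No CCAAT box (CCAAT) or TATA box (TATAAA) was found on either strand of these segments. The 250-base windows of Col4a1 and Col4a2, which reach past the short segment, each hold a CCAAT box outside it.

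Col4a1 was at 149.7, 174, 172 and 168 FPKM in control 1 to 4, and at 231, 346, 313 and 311 in MCT 1 to 4. The groups did not overlap, with MCT 1 the lowest MCT library, and the log2 fold change was 0.85 (SE 0.13, adjusted p 0.00227). Its partner Col4a2 was at 109, 131, 124 and 128 FPKM in control and 125, 209.9, 196 and 209 in MCT. Col4a2 was called higher (0.58, SE 0.16, adjusted p 0.0294), with MCT 1 inside the control range. That call was lost without any 1 of the libraries other than MCT 1 (adjusted p up to 0.0833), while without MCT 1 it was 0.73 (adjusted p 0.00169).

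Col4a3 fell. Its FPKM was 17.7, 25.3, 26.4 and 26.9 in control and 11.1, 14.8, 17.3 and 13.2 in MCT, which did not overlap, although control 1 was close to MCT 3. The log2 fold change was -0.78 (SE 0.16, adjusted p 0.0102). In the deposited table Col4a3 (ENSRNOG00000015365) lies on chromosome 9 from 88357556 to 88485830 (plus strand, Rnor_6.0). Col4a4, which shares its start region, was at 37.0, 46.4, 49.8 and 50.6 FPKM in control and 33.5, 40.3, 48.0 and 34.8 in MCT. These ranges overlapped and Col4a4 was not called (-0.23, 95% interval -0.54 to 0.07, adjusted p 0.264). Col4a5, the third chain of that meshwork, had a value of the other sign, 23.3 ± 2.64 FPKM (SD, n = 4) in control and 29.1 ± 4.79 in MCT (0.32, adjusted p 0.124). Col4a6 was at 3.84 to 4.21 FPKM in control and at 2.17 in MCT 1 but 4.85 to 5.38 in MCT 2 to 4 (0.11, adjusted p 0.802). Without MCT 1 both X-linked chains were called higher, Col4a5 at 0.41 (adjusted p 0.0373) and Col4a6 at 0.33 (adjusted p 0.0375).

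Markers of alveolar type 1 cells, the thin epithelium that lies on this basement membrane, were called lower for 3 of 8 and higher for none, 5 were not called, and their summed level was 3042 to 3445 FPKM in control and 2489 to 2947 in MCT. Over all genes tested 9.45% were called lower. Endothelial markers were lower for 2 of 7 tested, with sums of 701 to 812 FPKM in control and 441 to 595 in MCT. Most of that fall lay in the 2 called genes, Tek (mean 129.8 FPKM in control and 21.2 in MCT) and Clec14a (152 and 36.9). Cdh5, Kdr, Tie1 and Cldn5 (log2 fold change -0.58 to -0.25) and Egfl7 (0.21) were not called, so the sum does not stand for endothelial markers in general. The part of these cells in the type IV collagen values was not tested. In whole lung, fewer cells of a type and less RNA per cell cannot be told apart.

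The pairs compared here are trimer partners, except Col3a1 with Col1a1 and Col4a3 with Col4a1, which only share a class. Ratios between chains show whether both chains of a pair moved together within a library. They were compared for 7 pairs with an exact two-sided permutation test of the mean log2 ratio, which cannot give a p below 0.0286 for 4 against 4 libraries. The ratio of Col4a3 to Col4a1 was 0.118, 0.146, 0.154 and 0.16 in control and 0.0481, 0.0428, 0.0552 and 0.0426 in MCT, a log2 difference of -1.61. It was lower in all 4 MCT libraries than in any control library (exact p 0.0286, adjusted over the pairs 0.05). Col4a3 and Col4a1 were each separate between the groups, in opposite directions. Their ratio therefore could not overlap, and its p adds nothing to the calls of the single chains. Relative to its head-to-head partner Col4a4, Col4a3 was also lower without overlap, from 0.478 to 0.546 in control to 0.331 to 0.38 in MCT (log2 difference -0.54, exact p 0.0286, adjusted 0.05). The ratio of Col4a1 to Col4a2 was 1.31 to 1.39 in control and 1.49 to 1.85 in MCT (0.28, exact p 0.0286, adjusted 0.05), highest in MCT 1. Their adjusted p lies at the threshold and not below it, so none was called, although each reached the smallest p the design allows. The adjusted p depends on how many of the 7 pairs reach that smallest p, so no ratio could pass alone. The lack of a call is therefore no result about a single ratio. Without MCT 4 the ratio of Col3a1 to Col1a1 also reached the smallest p. These ratios, with those of Col3a1 to Col1a1 and Col8a1 to Col8a2, then had an adjusted p of 0.04 in the exact test. For Col4a3 to Col4a1 and Col4a3 to Col4a4 the exact p was 0.0286 whichever library was left out. The value of 0.04 thus does not mark a stronger difference in them.

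For the fibrillar and beaded filament pairs the ratios overlapped between groups. Col3a1 to Col1a1 was 5.38 to 6.44 in control and 3.84 to 5.4 in MCT (-0.32, exact p 0.0571, adjusted 0.08). Col5a1 to Col5a2 was 0.229 to 0.297 in control and 0.245 to 0.295 in MCT (0.10, exact p 0.4, adjusted 0.467). Col6a1 to Col6a2 was 0.904 to 1.0 in control and 0.806 to 0.998 in MCT (-0.06, exact p 0.543, adjusted 0.543), so these partner transcripts were at near equal levels in every library. Col8a1 to Col8a2 was 0.13 to 0.225 in control and 0.29 to 0.762 in MCT (1.12, exact p 0.0286, adjusted 0.05), with MCT 2 far above the other MCT libraries.

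**Figure D3:**
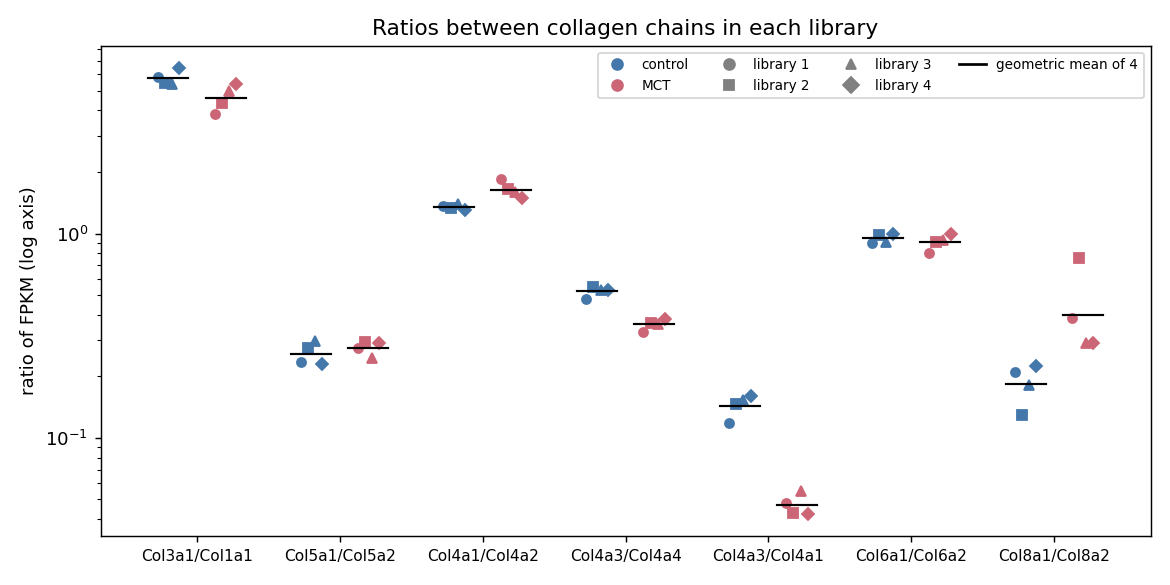
Ratio of FPKM of 7 pairs of chains (log y axis) in each library, control in blue and MCT in red, with the library number as the marker shape and the geometric mean of 4 as a black line. The groups are separate for Col4a1/Col4a2, Col4a3/Col4a4, Col4a3/Col4a1 and Col8a1/Col8a2 and overlap for the other pairs.

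Type VI collagen, a beaded filament that links cells to the matrix, was abundant, and its main chains analysed here were not called. Col6a2 was at 135, 137, 156 and 128 FPKM in control and 141, 181, 176 and 206 in MCT, and Col6a1 at 122, 134, 142 and 128 in control and 114, 165, 165 and 206 in MCT. Neither was called (0.34, adjusted p 0.0799, and 0.30, adjusted p 0.217), and the MCT 1 values lay among or below those of control. Without MCT 1 both passed (0.42 and 0.43, adjusted p 0.0233 and 0.0269), and Col6a2 was also called with DESeq2.

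The alternative type VI chains Col6a4, Col6a5 and Col6a6, which can take the place of the third chain of the trimer, lie side by side on the minus strand of chromosome 8 between 114353825 and 114766803 (Rnor_6.0). 1 rose, 1 fell and 1 was not called. Col6a4 was at 8.31, 5.78, 4.98 and 3.58 FPKM in control and 1.59, 0.97, 2.02 and 3.13 in MCT, with a log2 fold change of -1.56 (SE 0.37, adjusted p 0.0196). Its groups did not overlap, but control 4 and MCT 4 were near each other, and the call was lost without MCT 1, without MCT 3 and without control 1 and MCT 1 together (adjusted p up to 0.0916 over all alternatives). Col6a6 was at 1.73, 2.18, 1.55 and 1.60 FPKM in control and 4.07, 3.67, 3.98 and 3.63 in MCT. It rose by 1.11 on the log2 scale (SE 0.14, adjusted p 0.00103) with the smallest SD relative to the mean among the called chains in MCT. Col6a5 lies between them and was not called, at 27.5 ± 3.35 FPKM in control and 35.6 ± 9.6 in MCT (SD, n = 4; 0.37, adjusted p 0.204). The 3 genes are similar in sequence, and how shared reads were divided between them is unknown.

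Both multiplexins rose. Col18a1, whose C-terminal fragment is the vessel growth inhibitor endostatin, was at 16.3, 15.0, 16.2 and 14.9 FPKM in control and 22.4, 35.7, 31.1 and 31.9 in MCT. The control values were close together and all MCT values lay above them (0.95, SE 0.13, adjusted p 0.00142). The gene lies on chromosome 20 from 12225202 to 12332858 (plus strand, Rnor_6.0). Col15a1, which stabilises the basement membrane of muscle and vessels, was at 8.11, 5.13, 5.23 and 4.64 FPKM in control and 8.04, 12.4, 12.6 and 18.0 in MCT. Control 1 and MCT 1 were nearly equal, and the other MCT libraries lay above all control libraries (1.14, SE 0.25, adjusted p 0.0141).

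The epithelial and transmembrane collagens were not called. Col13a1, a transmembrane collagen of cell junctions, was at 51.2 ± 2.76 FPKM in control and 48.8 ± 5.27 in MCT (SD, n = 4), with a 95% interval of the log2 fold change from -0.28 to 0.13. Col17a1, the hemidesmosome collagen of basal epithelium, was at 1.82 to 3.29 FPKM in control and 2.24 to 4.88 in MCT (0.76, adjusted p 0.084). It was called higher without control 2 (0.97, adjusted p 0.0457), without MCT 3 (0.96, adjusted p 0.0213) and with DESeq2 (0.75, adjusted p 0.0351). Airway basal cell markers had summed levels of 2.97 to 10.6 FPKM in control and 1.68 to 17.6 in MCT, highest in MCT 1. Col7a1, the anchoring fibril under stratified epithelium, was at 3.0 to 5.04 FPKM in control and 3.05 to 4.20 in MCT (-0.24, adjusted p 0.342), and the transmembrane Col23a1 at 3.0 to 11.3 and 4.01 to 6.33 (-0.53, adjusted p 0.317). Without control 3, its lowest library, Col23a1 was called lower (-0.79, adjusted p 0.038).

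None of the 6 tested FACIT chains was called by edgeR, none had an unadjusted p under 0.05, and limma on log2(FPKM + 0.5) and DESeq2 called none. Col16a1, the most abundant of them, was at 24.8, 38.8, 41.5 and 26.2 FPKM in control and 34.9, 32.2, 27.6 and 30.8 in MCT. The control libraries spanned the whole MCT range (-0.07, 95% interval -0.49 to 0.35). Col12a1, which binds type I fibrils under tension, was at 16.4 to 24.2 FPKM in control and 20.6 to 31.2 in MCT (0.30, interval -0.05 to 0.65). Col14a1 was at 3.93 to 9.11 FPKM in control and 3.55 to 12.1 in MCT (0.45, interval -0.46 to 1.35). Col20a1 (-0.36), Col9a2 (0.49) and Col9a3 (-1.79, on about 20 control and 6 MCT read pairs) were not called either, and intervals of this width do not exclude changes of the size seen for Col4a1 in Col14a1, Col9a2 or Col9a3.

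In the network class Col8a1, which smooth muscle and endothelial cells make after vessel injury, was at 0.52, 0.50, 0.52 and 0.64 FPKM in control and 1.09, 1.60, 0.84 and 0.75 in MCT. The groups did not overlap, but MCT 4 and control 4 were close, and the call (0.96, SE 0.27, adjusted p 0.0357) was lost under 11 alternatives, among them each control library left out, MCT 1 or MCT 2 left out and limma at each pseudocount (adjusted p up to 0.098). Col8a2, its partner, was at 2.47, 3.86, 2.85 and 2.84 FPKM in control and 2.81, 2.10, 2.90 and 2.57 in MCT, which overlapped (-0.22, adjusted p 0.447). Col10a1, the chain of growth plate cartilage, was listed at 0 in every library but MCT 3 (0.12 FPKM).

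The 7 chains that did not pass the filter, Col2a1, Col10a1, Col9a1, Col19a1, Col22a1, Col25a1 and Col28a1, held at most 0.12 FPKM in any library and at most 12 read pairs in a group. Col26a1 passed the filter with about 15 control and 3 MCT read pairs and had a log2 fold change of -2.31 (SE 1.26, adjusted p 0.237); it was called only without MCT 2 (adjusted p 0.0244), the library that holds all its MCT reads. No difference could be resolved for these chains at this depth.

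Summed over the 42 chains, collagen transcripts were at 1264, 1357, 1312 and 1169 FPKM in control 1 to 4 and 1657, 2346, 2190 and 2637 in MCT 1 to 4. The sum of the fibrillar class was 430.2 ± 69 FPKM in control and 1079 ± 244 in MCT (SD, n = 4), 2.51 times as high. The basement membrane class was at 386 ± 32.2 and 572 ± 98.9 FPKM, the FACIT class at 63.4 ± 13.5 and 68.7 ± 4.16, and the remaining class, mostly type VI, at 392 ± 15.4 and 484 ± 86.3, 1.23 times as high. Fibrillar chains made up 28.8% to 38.8% of the FPKM of the 42 chains in the control libraries and 46.4% to 52.2% in the MCT libraries. Col3a1 alone made up 19.7% to 28.1% and 34.6% to 40.4%. The share of the remaining class was 29.5% to 32.3% in control and 20.9% to 22.5% in MCT. The sums and shares lack Col1a2, Col6a3 and Col21a1, which were not analysed here, so they are not those of all lung collagen RNA. These sums describe the libraries, and no test was made of them.

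**Figure D4:**
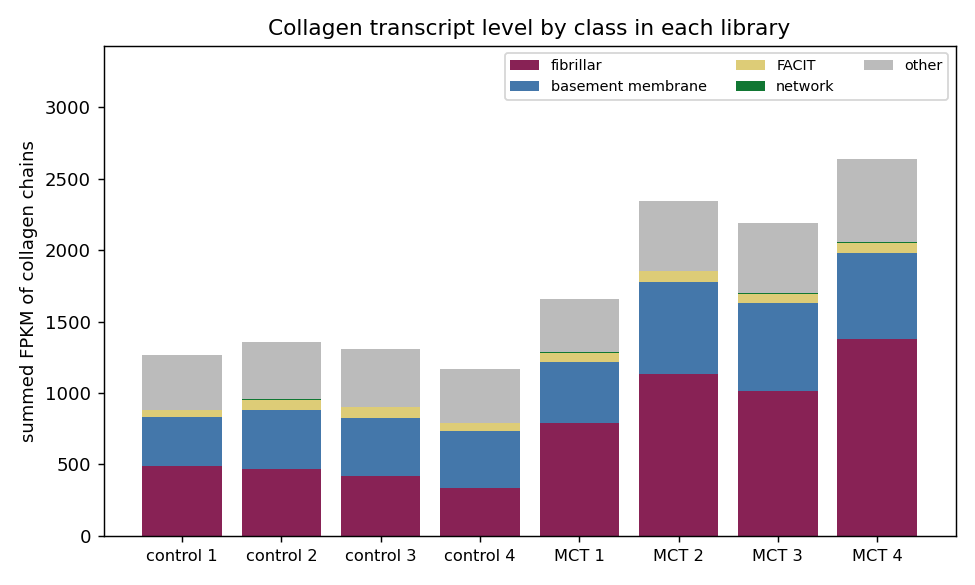
Summed FPKM of the collagen chains in each library, stacked by class. The control bars reach 1169 to 1357 FPKM and the MCT bars 1657 to 2637, with MCT 1 the lowest of its group, and the fibrillar part accounts for most of the added height.

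Over all 16715 genes tested, edgeR called 11.0% higher and 9.45% lower, and DESeq2 called 2266 genes higher and 2181 lower. Of the genes listed for making and folding collagen, edgeR called 8 of 17 tested higher and none lower, and DESeq2 called 9 higher and 1 lower. They were led by the collagen prolyl hydroxylase subunit P4hb (0.52, adjusted p 0.0045) and the lysyl hydroxylase Plod2 (0.99, adjusted p 0.00604). Of the other prolyl hydroxylase subunits P4ha3 was higher (0.83, adjusted p 0.0303). P4ha1 (-0.09, adjusted p 0.496) and P4ha2 (-0.07, adjusted p 0.754) were not called. Of the genes listed for trimming and cross-linking collagen, 5 of 12 were higher and 1 lower by edgeR (5 and 2 by DESeq2). Those higher were led by the lysyl oxidases Lox, from 19.6 ± 4.62 to 51.4 ± 9.1 FPKM (SD, n = 4), and Loxl2, from 4.44 ± 0.535 to 12.3 ± 4.04. The lower one was the procollagen protease Tll1 (-1.58, adjusted p 0.0382). Of the degradation genes 3 of 6 tested were higher and none lower, with the gelatinase Mmp2 at 1.14 (adjusted p 0.00183) and the collagenolytic cathepsin Ctsk at 1.42 (adjusted p 0.00271). None of 9 tested collagen receptors, integrin chains among them, was called by edgeR, 4 had an unadjusted p under 0.05, and DESeq2 and limma called none.

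Markers of cells that could supply collagen were counted in the same way, beside the 11.0% of all genes tested called higher and 9.45% called lower. Of 10 fibroblast markers 4 were higher and none lower, and their summed level was 396 to 587 FPKM in control and 567 to 754 in MCT, which overlapped. Smooth muscle markers were higher for none and lower for 1 of 8 (681 to 947 and 718 to 1149 FPKM). Of 8 pericyte markers 1 was higher (Postn) and 2 were lower (Notch3 and Rgs5), with sums of 244 to 329 and 228 to 389 FPKM. Postn, at a mean of 144 FPKM in control and 221 in MCT, made the largest part of the pericyte sums. Macrophage markers were higher for 5 of 7 tested, with sums of 243 to 360.4 and 495 to 907 FPKM. None of the tested mesothelial (5), ciliated (6), cardiac (7), Schwann (3), airway basal (3) or cartilage (2) markers was called by edgeR, DESeq2 or limma, and none had an unadjusted p under 0.05. Mesothelial sums ranged from 47.2 to 169 FPKM in control and 55.3 to 271 in MCT, ciliated sums from 555 to 745 and 337 to 686, and Schwann sums from 2.38 to 4.26 and 2.89 to 4.25. The part of these cell types in the collagen values was not tested.

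Promoter windows of RefSeq (GRCr8, 250 bases before the start) were matched for 33 of the 42 chains. A GC box was found in 19 of them, beside 30.5% of all 33469 windows. It stood in 6 of the 7 matched chains called higher (Col5a3, Col6a6, Col8a1, Col4a1, Col4a2 and Col18a1) and in 13 of the 26 matched chains not called higher. Each chain counts with 1 window, while the share over all windows was not reduced to 1 window per gene. A link between the motif and the calls was not tested. Col4a1 and Col4a2 share the 76 bases between their starts and the GC box in them, so they are not fully separate cases. The CCAAT box stood in 10 of the 33 windows (34.0% of all windows), 3 of the 7 of chains called higher and 7 of the 26 others. The TATA box stood in 3, Col17a1, Col13a1 and Col10a1 (12.9% of all windows), none of them called higher. These are matches of letters and not measured binding.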

How the data were processed

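The authors deposited 1 table of genes on the rat build Rnor_6.0, with FPKM values and estimated counts for each of 8 lung libraries per the file headers. Per the submitters' processing notes, cutadapt 1.9, HISAT2 2.0.4, StringTie 1.3.4d and edgeR were used; their order and settings are not given in the sources used here, nor is the handling of strand and of reads shared by similar genes. The deposited estimated counts are whole numbers in steps of about 3.69 units per read pair (periodogram of the low values), so read pairs are counts divided by that value. Counts were tested with edgeR 4.0.16 in R 4.3.3: filterByExpr (minimum count 10), TMM, robust quasi-likelihood fit, two-sided, Benjamini-Hochberg adjustment over 16715 genes; the standard error is the absolute log2 fold change divided by the square root of F. The procedure was tested on 3 simulated data sets with 200 genes changed by known folds. In these sets it recovered 16.4% of changes of 1.5 times, 59.2% of 2 times and 83.8% of 4 times. There 7.02% of its calls were false. The sets had 200 genes changed among 16379 to 16387 tested, where the main test called 3424 of 16715. The adjusted p depends on that share, so recovery at the share called here was not tested. Most changes of 1.5 times were missed in these sets, so a chain not called is not shown to be unchanged. Ratios of FPKM used an exact permutation test, adjusted over 7 pairs; the planned Col1a1 and Col1a2 pair was not analysed here. Alternatives used limma 3.58.1, DESeq2 1.42.0, other scalings, filters and pseudocounts, a replicate block and left-out libraries.

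The members, classes and gene lists were chosen with earlier results of these data known. All called chains were named. Values in each library are given for up to 3 called chains per class with the smallest p, the most abundant tested chain per class, the chains in the pairs and those that fell. Of each pathway list, 2 called genes were to be named. For the cross-linking list these are the 2 with the smallest p. Tll1, P4ha1, P4ha2 and P4ha3 were added after their values were seen. Same-numbered libraries did not deviate together (correlations -0.085 to 0.11), so the numbers were not taken as pairs.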

Additional observations from a re-analysis of the deposited data

Results flagged for a closer look

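The FPKM of each tested chain was searched within each group for a library standing well apart. This was so for 7 of 70 sets; chance would flag about 3.5 (1 in 20). The share of the range that separates it from its nearest neighbour was 0.839 for Col4a2 in MCT (MCT 1 at 125 FPKM, the others at 196 to 209.9) and 0.835 for Col4a6 in MCT (MCT 1 at 2.17, the others at 4.85 to 5.38). In control it was 0.834 for Col4a3 (control 1 at 17.7, the rest at 25.3 to 26.9), and 0.83 for Col15a1 (control 1 at 8.11, the rest at 4.64 to 5.23). It was 0.926 for Col11a2 (control 2 at 1.97, the rest at 3.98 to 4.14) and 0.857 for Col8a1 (control 4 at 0.64, the rest at 0.50 to 0.52). For Col26a1 in MCT it was 1.0, with MCT 2 at 0.09 FPKM and the others listed at 0.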

How the results depend on the processing

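The count of chains higher was 8 to 12 against 9, and that of chains lower 2 or 3 against 2, under other scalings, filters and pseudocounts, limma, DESeq2, counts in read pairs, and control 1 and MCT 1 left out together. With single libraries left out they ranged from 7 to 16 higher and 1 to 3 lower: 16 without MCT 1, and 1 lower without MCT 3. Calls over all genes moved too, from 2166 of 16966 tested without MCT 2 to 4447 of 16715 with DESeq2. They were 3676 of 16947 without MCT 1, 2707 of 16715 with the replicate block and 3424 of 16715 in the main test. The shifts in the counts of chains are therefore not particular to collagen. Asking for a log2 change of 1 or more in size as well, 5 chains were higher and 1 lower. With the replicate number as a block, 7 were higher and 2 lower: Col15a1, Col8a1 and Col6a4 lost their calls and Col11a2 gained one. Control 2 to 4 did not correlate best with the MCT library of their own number. For ratios the block's smallest possible p is 0.125. With 1 library left out, the exact test of a ratio cannot go below 0.0286, and no ratio changed sign. Without MCT 4, 5 ratios passed the threshold (adjusted p 0.04): Col3a1 to Col1a1 (-0.40), Col4a1 to Col4a2 (0.33), Col4a3 to Col4a4 (-0.56), Col4a3 to Col4a1 (-1.57) and Col8a1 to Col8a2 (1.27). None passed with any other library left out. A ratio can pass only when enough of the 7 pairs reach the smallest p together, so this describes the set of pairs and not single ratios. No called chain changed sign; Col16a1, not called at -0.07, was at 0.03 without control 2 and 0.06 without control 3. Col1a1, Col3a1, Col5a3, Col4a1, Col4a3, Col6a6 and Col18a1 kept their calls under every alternative but the threshold on size, which Col4a1, Col4a3 and Col18a1 did not reach. Chains under about 1 FPKM rest on few read pairs, and their fold changes are uncertain.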
